A study of Homo sapiens with 17 samples.

Results

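The OAS family comprises 4 genes of the interferon response, OAS1, OAS3, OAS2 and OASL, and all 4 were followed here by their chromatin marks. They were picked as a named family with their peak cover in the arms already known, and are 4 of 27223 genes whose start could be placed and of 18727 protein-coding genes whose body could be measured. HCC1954, a HER2-positive human breast cancer line, was transfected with antisense oligos and fixed 72 h later. The libraries form an Si1235 arm and an NC1235 arm, names that the labels do not spell out. LINC01235, a long non-coding RNA, is named in the title of the series. The series holds 17 samples. Each arm has 2 libraries of H2AZ, a histone variant found at gene starts, 2 of H3K27ac and 1 of H3K9ac, acetyl marks of active promoters and enhancers, and 2 of H3K36me3, a mark laid down over transcribed gene bodies. Each arm also has 1 input sample, not used here, and 1 further library came from ChIRP, in which probes against an RNA pull down chromatin. Its title carries NC1235, and the sources used here do not give its target RNA. Both arms share the cell line and the transfection, and no untransfected group was analysed here.

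OAS1, OAS2 and OAS3 bind double-stranded RNA and then make chains of adenosine joined by an unusual linkage, called 2-5A. These chains act as a second messenger that leads to the cutting of viral and cellular RNA. OASL has the same fold but lacks this enzyme activity. It carries ubiquitin-like repeats, helps the RNA sensor RIG-I to signal and restrains the DNA sensor cGAS. All 4 genes are classical targets of interferon through the ISGF3 complex, which holds STAT2 and IRF9 and binds interferon-stimulated response elements in promoters.

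On GRCh38.p14, the assembly called hg38, OAS1 lies at chr12:112906962-112933219, OAS3 at chr12:112938474-112973251 and OAS2 at chr12:112978519-113011723, all on the plus strand. Gaps of 5254 bp between OAS1 and OAS3 and of 5267 bp between OAS3 and OAS2 separate them. OASL lies apart at chr12:121017761-121039246 on the minus strand, 8006037 bp beyond the end of OAS2. The 4 genes span 26258, 34778, 33205 and 21486 bp in the order OAS1, OAS3, OAS2 and OASL.

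The promoters of OAS1 and OAS3 are shown because the start windows described below are centred on them. They run from 250 bases before the start to 50 after it, at chr12:112906712-112907011 for OAS1 and chr12:112938224-112938523 for OAS3, plus strand, from RefSeq. Of the 4 genes, these 2 matched the promoter table. Capitals mark matches to AANNGAAA, the core read by interferon regulatory factors, or to the longer interferon-stimulated form, in which GAAA is followed after any 2 bases by another GAAA.
OAS1: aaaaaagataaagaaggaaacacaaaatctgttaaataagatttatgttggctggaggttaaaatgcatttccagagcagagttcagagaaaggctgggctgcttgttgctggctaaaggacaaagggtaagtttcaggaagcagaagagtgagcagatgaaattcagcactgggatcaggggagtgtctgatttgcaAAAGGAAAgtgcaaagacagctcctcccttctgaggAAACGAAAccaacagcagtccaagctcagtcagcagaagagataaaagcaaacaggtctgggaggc
OAS3: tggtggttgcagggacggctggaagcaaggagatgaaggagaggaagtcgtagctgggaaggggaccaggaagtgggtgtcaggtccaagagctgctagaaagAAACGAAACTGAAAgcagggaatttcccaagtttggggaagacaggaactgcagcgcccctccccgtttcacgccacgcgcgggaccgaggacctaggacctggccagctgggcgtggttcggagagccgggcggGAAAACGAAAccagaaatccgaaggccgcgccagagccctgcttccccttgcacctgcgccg

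The OAS3 promoter holds the longer form at bases -143 to -134 and again at -12 to -3, with the start base counted as 0. Each copy overlaps a match to AANNGAAA, and OAS3 has 3 such core matches in all. The OAS1 promoter holds AANNGAAA at -52 to -45 and at -16 to -9, and no match to the longer form in this window. It also holds TTCNNNGAA, the form read by STAT dimers, at -168 to -160. Among 34961 promoters of the same length, searched on both strands, 3.58% held the longer form, 22.8% held AANNGAAA and 7.66% held TTCNNNGAA. These matches describe letters in the sequence and no binding was measured.

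The measure throughout is peak cover, the percent of a window that lies under peaks of 1 library. For H3K36me3 the window is the gene body, and for the other marks it is the 1.0 kb either side of the gene start. Differences are Si1235 minus NC1235 in percentage points. The choice of the 4 genes rested on these same values, so they are given as a description and carry no test. Nothing in the labels says whether replicates came from separate cultures, so the spread between libraries may be technical. In bulk chromatin, a change in the share of cells that carry a mark and a change in its amount per cell cannot be told apart.

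The lists held 42759 to 81320 peaks for the histone marks and 128273 for ChIRP. Read depth is not stated in them. The commonest background level of a list, here its floor, ran from 0.765 to 1.664 reads in the histone lists. It follows sequencing depth, except in the NC1235 H3K27ac lists, whose pileups and floors were scaled before deposit. Of 7 markers of breast epithelium, all had H3K27ac cover at the start in both arms, with a median of 100% in Si1235 and 100% in NC1235, ERBB2 included. The T cell and pan-leukocyte genes CD3E and PTPRC and the fibroblast genes COL1A2 and PDGFRB had 0% H3K27ac and 0% H3K36me3 cover in every library. The third fibroblast gene, COL1A1, had 0% H3K36me3 cover in every library, but H3K27ac cover of 14.3% and 14.1% in Si1235 and of 14.3% and 11.8% in NC1235. Its H2AZ cover was 43.5% and 42.3% in Si1235 and 40.7% and 35.5% in NC1235, with the arms apart, and its H3K9ac cover was 39.6% in Si1235 and 39.9% in NC1235. CD14 had H3K27ac cover of 23.9% and 52.1% in Si1235 and of 22.1% and 42.0% in NC1235. CDH5, an endothelial gene, had H3K27ac cover of 8.95% and 38.6% in Si1235 and of 27.7% and 6.05% in NC1235. Its H3K36me3 cover was 5.996% and 6.77% in Si1235, against 0% and 0% in NC1235, and its H3K9ac cover was 23% in Si1235 and 68.1% in NC1235. PECAM1, the other endothelial gene, had 0% H3K27ac cover in every library and H3K36me3 cover of 18.0% and 16.2% in Si1235 and of 21.6% and 13.5% in NC1235, with the arms overlapping. The part of these markers in the OAS results was not tested.

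H3K36me3 covered more of all 4 OAS genes in Si1235 than in NC1235, and the gap was widest at OAS2. Over OAS1, the smallest of the synthetases, H3K36me3 cover was 42.0% and 41.0% in Si1235, against 29.6% and 26.8% in NC1235. Over OAS3, the family member with the highest affinity for long double-stranded RNA, it was 87.6% and 83.7% in Si1235, against 78.6% and 76.1% in NC1235. Over OAS2, a membrane-associated synthetase, it was 73.9% and 70.2% in Si1235, against 32.7% and 23.2% in NC1235. At each of these genes the arms did not overlap and Si1235 was higher, with differences in means of 13.4, 8.32 and 44.1 points.

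OASL had H3K36me3 in one arm only. Cover was 28.2% and 17.7% in Si1235, against 0% and 0% in NC1235, a difference of 22.97 points. OASL therefore entered the set of measured genes through Si1235 alone, since a gene was kept where its cover averaged 5% or more across the 4 libraries. A cover of 0% in both NC1235 libraries with cover in both Si1235 libraries occurred in 31 of 8351 kept genes, or 0.371%. Genes with this pattern but a mean cover under 5%, CDH5 and DHX58 among them, are not in that count. The share over all genes without that filter was not taken. A cover of 0% means that no peak passed the authors' threshold, not that the mark was absent.

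For the background, arms apart with Si1235 higher was found in 20.3% of the 8351 genes measured for H3K36me3, and in 13.7% with Si1235 lower. Arms apart with a difference in means of at least 20 points and Si1235 higher was found in 1.76%, among them OAS2 and OASL. With Si1235 lower it was found in 0.503%, none of them an OAS gene. Only 8 of the 8351 genes, OAS2 included, had a difference at least as high as OAS2, against 93 for OASL, 458 for OAS1 and 1067 for OAS3. The median difference was 18.2 points over the 4 OAS genes and 0.694 points over all measured genes. The members were chosen on this contrast, so nothing is read from these shares. Across all genes, limma called 0 genes higher and 0 lower in Si1235 at an adjusted p under 0.05, and 663 genes had an unadjusted p under 0.05.

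**Figure D1:**
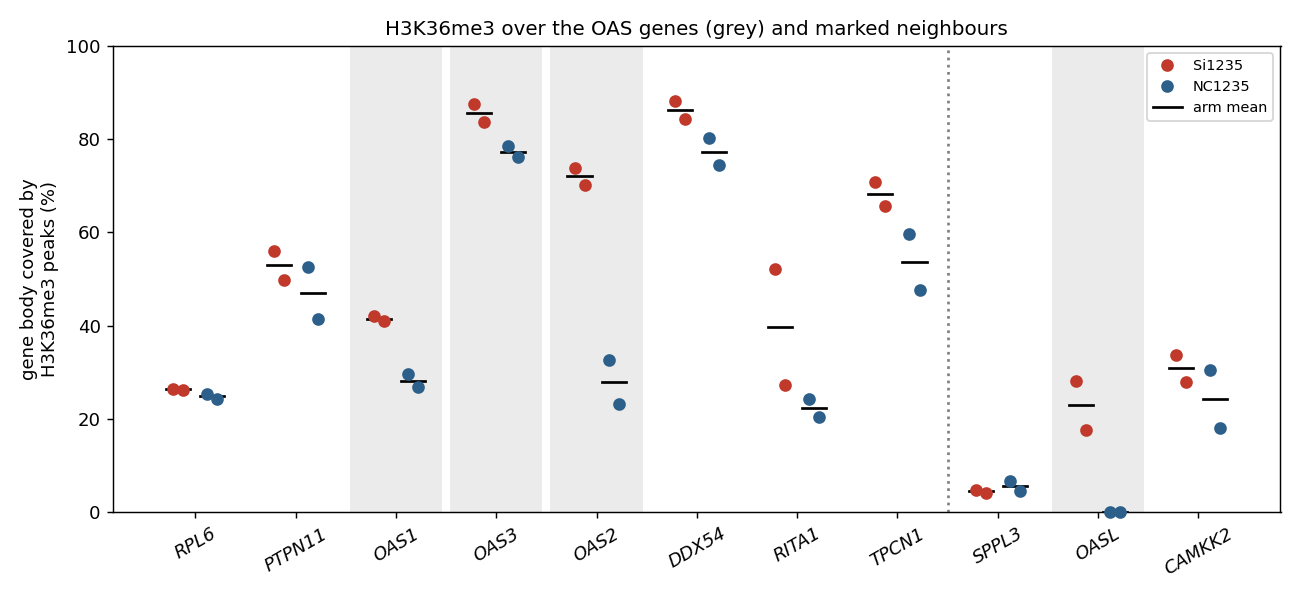
Percent of the gene body covered by H3K36me3 peaks (y axis) for the OAS genes on grey and for 7 neighbours that carry the mark, with OASL and its neighbours right of the dotted line. Each point is 1 library, Si1235 left and NC1235 right, and bars are means of 2 libraries. OAS2 stands at 73.9% and 70.2% in Si1235 against 32.7% and 23.2% in NC1235, and OASL at 0% in both NC1235 libraries.

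Each gene had its own layout of H3K36me3. OAS1 carried the mark over its 5′ part only, in both arms. The last peak of OAS1 ended 14755 and 14679 bp from the start in Si1235 and 14138 and 14104 bp in NC1235, which is 56.2%, 55.9%, 53.8% and 53.7% of the gene. The remaining stretch to the annotated end held no H3K36me3 peak in any library. The first H3K36me3 peak of OAS1 began 1528 and 1559 bp from the start in Si1235, against 2561 and 2380 bp in NC1235, so the 5′ edge lay nearer the start in both Si1235 libraries.

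OAS3 was the most fully marked member. Of 10 equal parts of the gene, counted from the start, parts 2, 3, 8 and 9 were 100% covered in all 4 libraries. The first OAS3 peak began 1050 and 1767 bp from the start in Si1235, against 2929 and 2642 bp in NC1235. Part 1 of OAS3 was covered by 54.5% and 37.1% in Si1235 and by 15.8% and 24.04% in NC1235. The last OAS3 peak ended at 33611 bp in both Si1235 libraries, and at 33271 and 33043 bp in NC1235.

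At OAS2 the difference ran through the whole marked part of the gene. OAS2 held 3 and 5 H3K36me3 peaks in Si1235 and 9 and 10 in NC1235, and the widest peak measured 18208 and 8184 bp in Si1235 against 2119 and 2098 bp in NC1235. Fewer and wider peaks thus made up the higher cover in Si1235. The 3′ 50% of OAS2 was covered by 99.8% and 95.5% in Si1235, against 50.7% and 34.9% in NC1235. The 5′ 50% was covered by 48.0% and 44.9% in Si1235, against 14.6% and 11.6% in NC1235. Part 1 of 10 of OAS2 held no H3K36me3 peak in any library.

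At OASL the H3K36me3 peaks of Si1235 were short and broken. There were 9 peaks in replicate 1 and 5 in replicate 2, covering 6.06 and 3.81 kb. The first began 5434 and 7681 bp from the OASL start, and the widest measured 1543 and 1561 bp. Parts 1, 2 and 10 of OASL held no peak in either Si1235 library.

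Peak height gave the same order of arms as cover. Height is given as the pileup, the reads stacked at the summit, divided by the floor of the list. The highest H3K36me3 peak of OAS1 reached 35.6 and 36.8 times the floor in Si1235, against 23.7 and 22.2 in NC1235. That of OAS3 reached 42.0 and 40.6 in Si1235, against 30.9 and 31.0 in NC1235. That of OAS2 reached 29.2 and 31.7 in Si1235, against 13.7 and 15.5 in NC1235. At OASL the Si1235 peaks reached 12.8 and 13.96 times the floor, and NC1235 had no peak. Height and cover come from the same peaks, and the height of H3K36me3 was not taken over all genes, so no background share stands beside it.

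**Figure D2:**
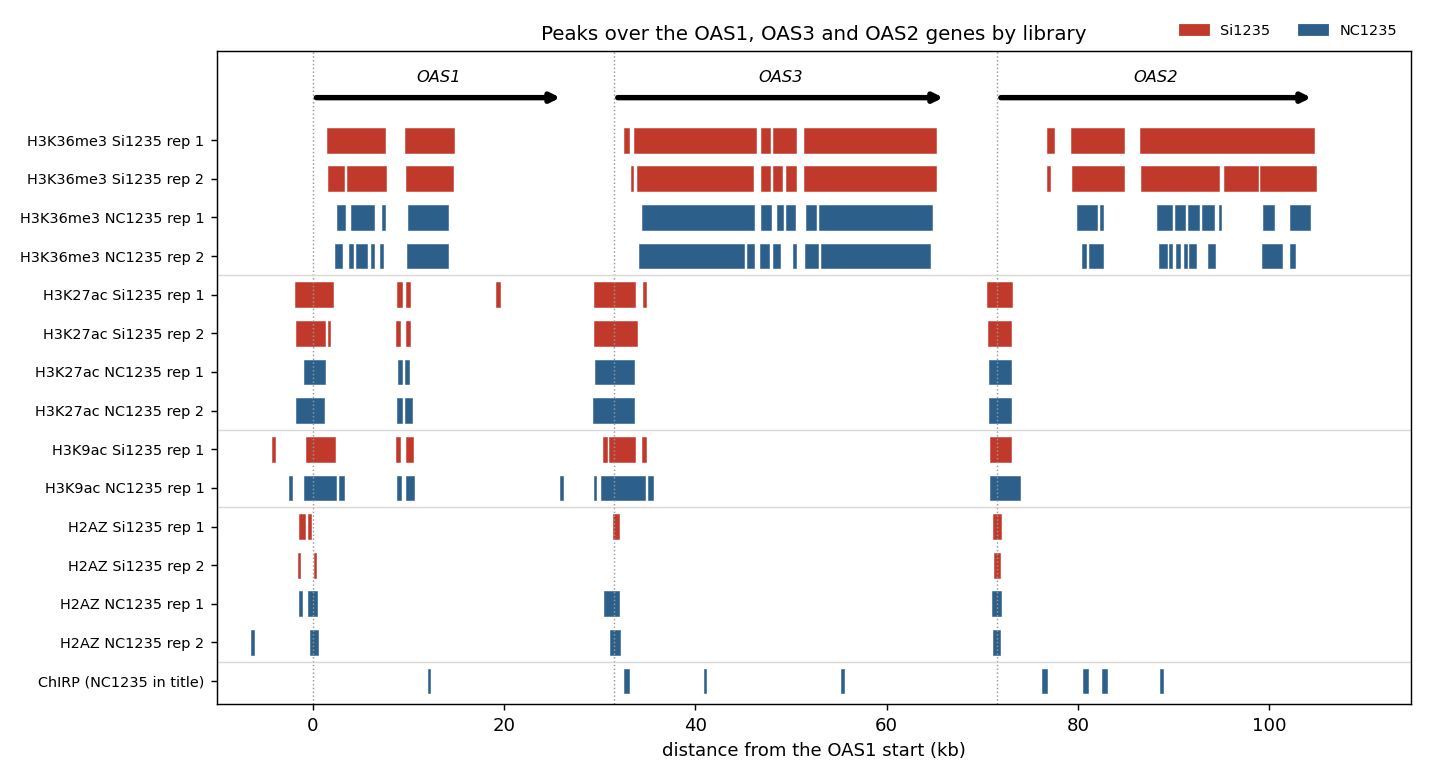
Peaks of each library over OAS1, OAS3 and OAS2, with distance from the OAS1 start in kb on the x axis and 1 library per row, Si1235 above NC1235 for each mark. Arrows give the genes and dotted lines their starts. The widest H3K36me3 peak over OAS2 measures 18208 and 8184 bp in Si1235 and 2119 and 2098 bp in NC1235, and OAS1 holds no H3K36me3 beyond 14755 bp.

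**Figure D3:**
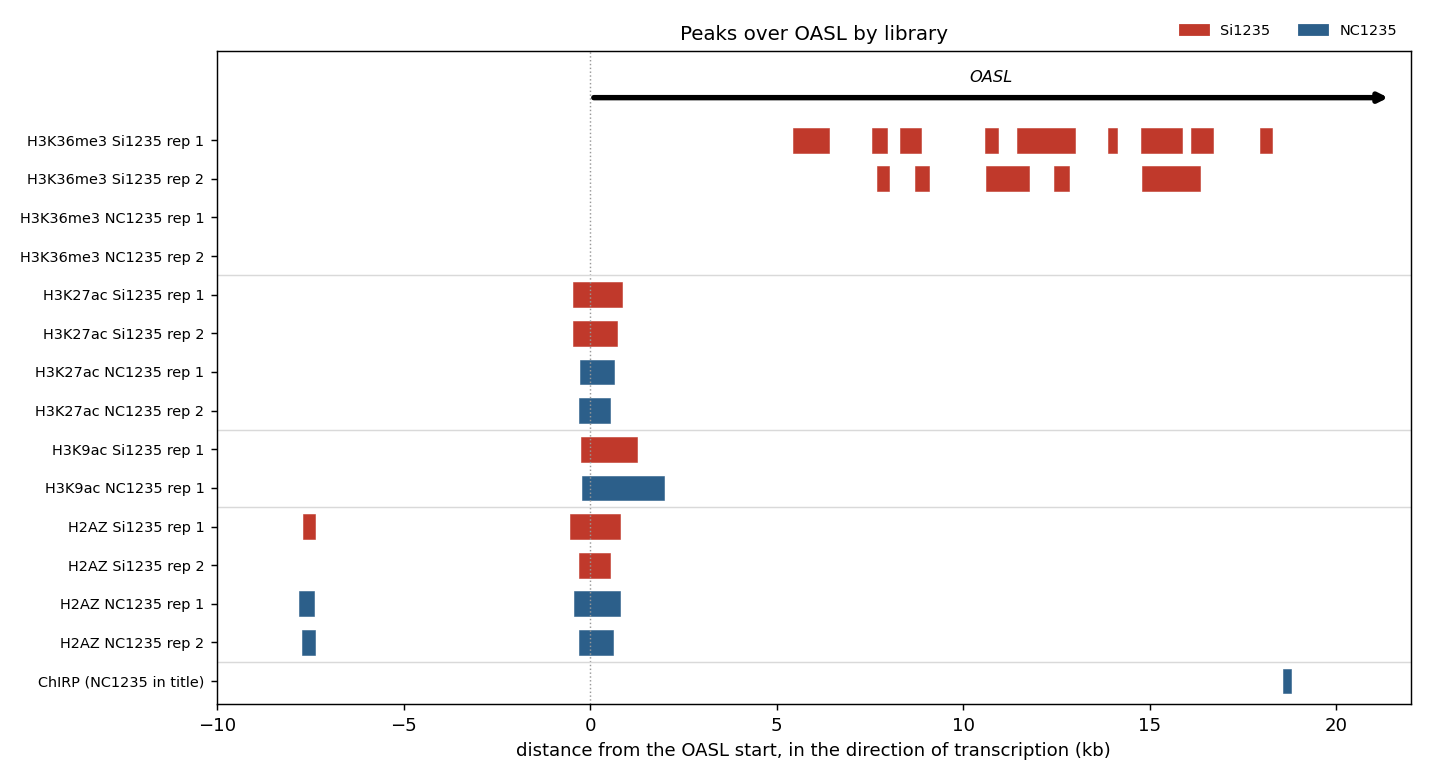
Peaks of each library over OASL, with distance from its start in kb along the direction of transcription on the x axis and 1 library per row. The Si1235 libraries hold 9 and 5 H3K36me3 peaks in the gene and the NC1235 libraries hold 0.

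Counted as regions, merged over the libraries of a mark with a flank of 10 kb, the cluster and the OASL locus held 5 H3K36me3 regions with a peak in both Si1235 libraries and in neither NC1235 library. The reverse kind numbered 0. Regions were not counted elsewhere in the genome, so no background share stands beside these counts. The H3K36me3 lists held more peaks in Si1235, with 74826 and 81320, than in NC1235, with 67302 and 71041. In covered length the arms overlapped, at 140.61 and 124.03 Mb in Si1235 and 144.07 and 117.56 Mb in NC1235. Of the 5, 1 lay in OAS2, 5152 to 5939 bp from its start, and 4 lay in OASL, between 7540 and 16694 bp from its start. H2AZ and H3K27ac had 0 regions of either kind at both loci. H3K9ac, with 1 library per arm, had 1 region in Si1235 only and 5 in NC1235 only, all in the cluster, and with only peaks of a −log10 q of at least 5 it had 0 and 0.

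H2AZ cover was lower in Si1235 at the starts of OAS1 and OAS3, and the arms overlapped at OAS2 and OASL. At OAS1 it was 22.7% and 11.4% in Si1235, against 47.1% and 42.5% in NC1235, a difference of -27.8 points. At OAS3 it was 31.7% and 0% in Si1235, against 75.8% and 51.1% in NC1235, a difference of -47.6 points. At these 2 genes both Si1235 values were below both NC1235 values, and OAS3 had no H2AZ peak at all in Si1235 replicate 2. At OAS2 it was 41.9% and 35.0% in Si1235, against 49.1% and 33.2% in NC1235. At OASL it was 67.6% and 40.6% in Si1235, against 61.7% and 45.2% in NC1235. The lower of the 2 Si1235 values lay below both NC1235 values at OASL and the higher one above both.

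Arms apart with Si1235 lower was found in 10.7% of 13888 genes for H2AZ, and in 21.1% with Si1235 higher. Lower by at least 20 points with arms apart was found in 1.16%, OAS1 and OAS3 among them, and higher in 2.02%. A difference at least as low as that of OAS3 occurred in 9 of the 13888 genes, OAS3 included, and for OAS1 in 74. The median difference was -15.2 points over the 4 OAS genes and 1.23 points over all measured genes. H3K36me3 higher and H2AZ lower together, with the arms apart for both, was found in 131 of 6442 genes with both measures, or 2.03%, and OAS1 and OAS3 are among them. These shares too stand beside values that chose the genes. limma called 0 genes for H2AZ in either direction, and 800 genes had an unadjusted p under 0.05.

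The H2AZ peaks themselves show how the cover was built. At OAS3 the summit held 17 reads in Si1235 replicate 1, and replicate 2 had no peak, against 43 and 32 reads in NC1235. Over the floor of each list this was 14.3 times in Si1235 replicate 1, against 35.8 and 39.6 times in NC1235, so the OAS3 peak was lower as well as narrower. At OAS1, a peak upstream of the start stood highest in Si1235 replicate 1, with its summit at -1225 bp from the start. The highest OAS1 peaks reached 13.4 and 13.1 times the floor in Si1235 and 17.5 and 9.90 times in NC1235. The heights overlapped at OAS1 although the covers did not, and the reads behind them were few, with 16 and 10 at the summits in Si1235 and 21 and 8 in NC1235. Over 13079 genes with a start peak in every H2AZ library, heights were apart in 18.5% with Si1235 higher and in 15.1% with Si1235 lower. The OAS1 peak of NC1235 replicate 2 had a −log10 q of 4.59, and with only peaks of at least 5 it dropped out, which left a difference of -6.50 points and overlapping arms. In a window of 2.5 kb either side the OAS1 arms overlapped too, with a difference of -8.70 points, while in a window of 0.5 kb either side they stayed apart, with a difference of -59.9 points. At OAS3 the arms were apart in both windows, with differences in means of -20.1 points in the wider and -65.9 points in the narrower one.

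The local background at OAS3 differed between the arms and stood beside its H2AZ difference. The peak caller scores a summit against local background, which was solved here from the authors' fold enrichment and p-value. At the OAS3 start it was 3.14 times the floor in the Si1235 H2AZ library with a peak, 3.64 and 2.94 times in the Si1235 H3K27ac libraries and 3.31 times in the Si1235 H3K9ac library. In every NC1235 library of these marks it was at the floor, 1.0 times. A background of at least 2.0 times the floor in every Si1235 library and under 1.5 times in every NC1235 library was found at 2.06% of starts for H2AZ, 2.63% for H3K27ac and 4.21% for H3K9ac. The starts counted had a peak in every library, so for H2AZ OAS3 is not among them. Their median background was lower in Si1235 than in NC1235. It was 1.433 against 1.878 times for H2AZ, 1.439 against 1.89 for H3K27ac and 1.419 against 1.915 for H3K9ac. How this bears on cover was not tested. The part of the raised background at OAS3 in its lower H2AZ cover was not tested. At OAS1 the background of the highest H2AZ peak was 1.0 times the floor in all 4 libraries. In Si1235 replicate 1 that is the upstream peak with its summit at -1225 bp. The peak nearer the start in that library, with its summit at -301 bp, had a background of 1.345 times the floor.

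**Figure D4:**
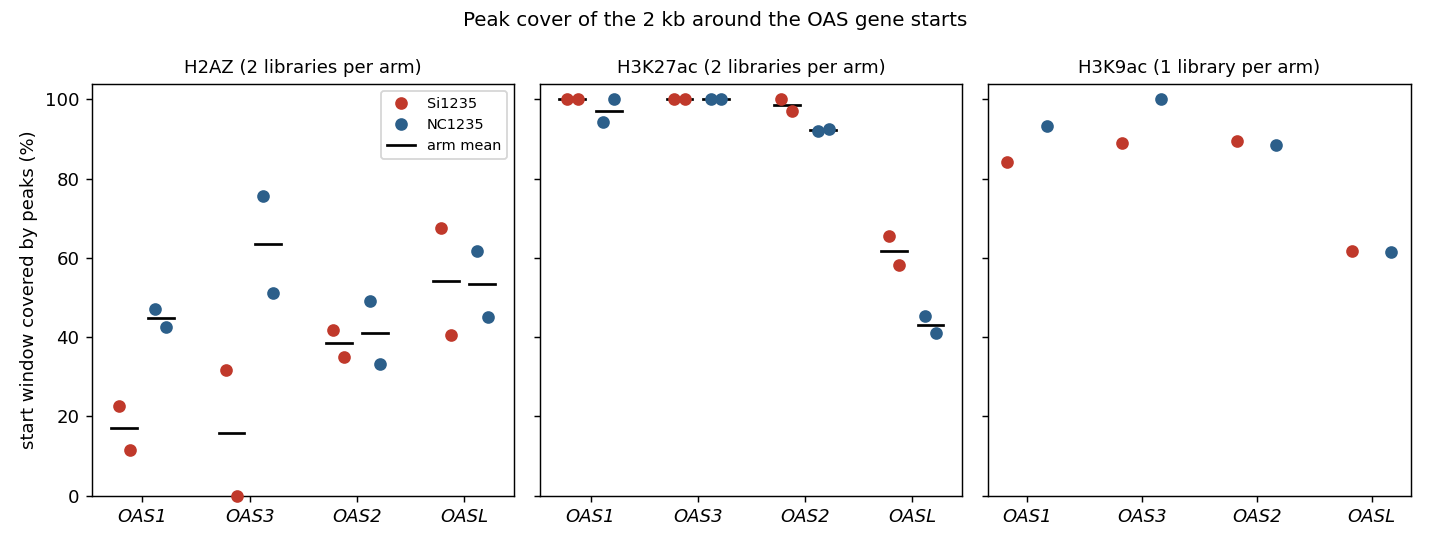
Percent of the 2.0 kb around each OAS gene start that peaks cover (y axis), for H2AZ, H3K27ac and H3K9ac. Each point is 1 library, Si1235 left and NC1235 right, and bars are means of 2 libraries. H2AZ at OAS3 stands at 31.7% and 0% in Si1235 against 75.8% and 51.1% in NC1235, while H3K27ac at OAS3 is at 100% in all 4 libraries.

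H3K27ac cover within 1.0 kb of the start had little room to differ at the cluster. It was 100% in all 4 libraries at OAS3, and at OAS1 it was 100% and 100% in Si1235 and 94.3% and 100% in NC1235. At OAS2 it was 100% and 97.1% in Si1235, against 92.2% and 92.6% in NC1235, a difference of 6.18 points. At OASL it was 65.5% and 58.2% in Si1235, against 45.4% and 41.0% in NC1235, a difference of 18.7 points. The arms were thus apart at OAS2 and OASL, with Si1235 higher. Of 12253 genes, 23.1% had arms apart with Si1235 higher and 17.6% with Si1235 lower. Where the means also differed by at least 20 points, these were 2.2% and 2.01%, a size that no OAS gene reached. limma called 26 genes higher and 25 lower, or 0.212% and 0.204%. The median difference was 4.51 points over the 4 OAS genes and 0 over all measured genes. In the window of 2.5 kb either side, OAS1 had a mean H3K27ac cover of 70.9% in Si1235 and 51.2% in NC1235. The arms did not overlap there, and 19.7 points is the difference in means, not the gap between the arms. There 3 of the 4 genes were higher with the arms apart. So were 3671 of 12601 measured genes in that window, and 2510 were lower.

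The height of the H3K27ac start peak was not limited in this way, and it was higher in Si1235 at all 4 genes. At OAS1 the pileup was 97.1 and 86.9 times the floor in Si1235, against 55.1 and 52.4 in NC1235, a log2 ratio of 0.77. At OAS3 it was 163.6 and 162.0 in Si1235, against 123.4 and 93.8 in NC1235, a log2 ratio of 0.58. OAS3 thus had the tallest H3K27ac start peak of the family in every library, and both genes stood higher in both Si1235 libraries. At OAS2 it was 69.8 and 72.4 in Si1235, against 36.3 and 40.7 in NC1235, a log2 ratio of 0.89. At OASL it was 34.6 and 43.4 in Si1235, against 27.8 and 30.8 in NC1235, a log2 ratio of 0.41. The arms did not overlap at any of the 4. Among 11700 genes with a start peak in every H3K27ac library, 33.4% had arms apart with Si1235 higher and 19.1% with Si1235 lower, and the median log2 ratio was 0.06. Pileups of the NC1235 lists of H3K27ac were scaled by 0.702 and 0.947 before deposit, which the floor of each list shares. This measure was chosen after the cover values were seen.

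The width of the H3K27ac peak at the start was 3921 and 2952 bp at OAS1 in Si1235, against 2177 and 2939 bp in NC1235. At OASL it was 1309 and 1164 bp in Si1235, against 908 and 819 bp in NC1235. The Si1235 peaks of OASL were the wider ones in both libraries, while at OAS1 replicate 2 of each arm had nearly the same width. OAS3 had the broadest H3K27ac peak of the family in every library, with 4264 and 4526 bp in Si1235 and 4049 and 4295 bp in NC1235. Within OAS1, 2 further H3K27ac regions, 8662 to 9380 bp and 9688 to 10352 bp from the start, had peaks in all 4 libraries, and H3K9ac regions overlapped both in both arms. H3K27ac regions in 1 Si1235 library alone lay inside OAS1, -12312 to -11917 bp from the OAS3 start, and inside OAS3, 3026 to 3334 bp from its start.

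H3K9ac had 1 library per arm and no replicate check. Its start window cover was 84.2% in Si1235 and 93.3% in NC1235 at OAS1, and 89.0% in Si1235 and 100% in NC1235 at OAS3. It was 89.5% in Si1235 and 88.5% in NC1235 at OAS2, and 61.8% in Si1235 and 61.5% in NC1235 at OASL. In the window of 2.5 kb either side, H3K9ac cover was lower in Si1235 at all 4 genes, by -13.8 points at OAS1 and -19.7 at OAS3. There the differences were -19.7 points at OAS2 and -14.6 points at OASL, so the sign at these 2 genes depended on the window. None of the 4 genes differed by 20 points, a size passed by 2.8% of 14062 genes with Si1235 higher and by 4.29% with Si1235 lower. The H3K9ac summit was lower in Si1235 at all 4 genes, at 29.4 times the floor in Si1235 and 49.3 in NC1235 for OAS1, and at 18.0 in Si1235 and 31.1 in NC1235 for OAS2. For OAS3 it was 54.7 times in Si1235 and 73.9 in NC1235, and for OASL 21.6 in Si1235 and 26.6 in NC1235. Since 80.2% of 13506 genes were lower in that library and 19.8% higher, with a median log2 ratio of -0.19, the count of 4 is near the background. At OASL the local background of the H3K9ac peak was 2.36 times the floor in Si1235 and 1.0 times in NC1235, and its part in the lower summit was not tested.

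**Figure D5:**
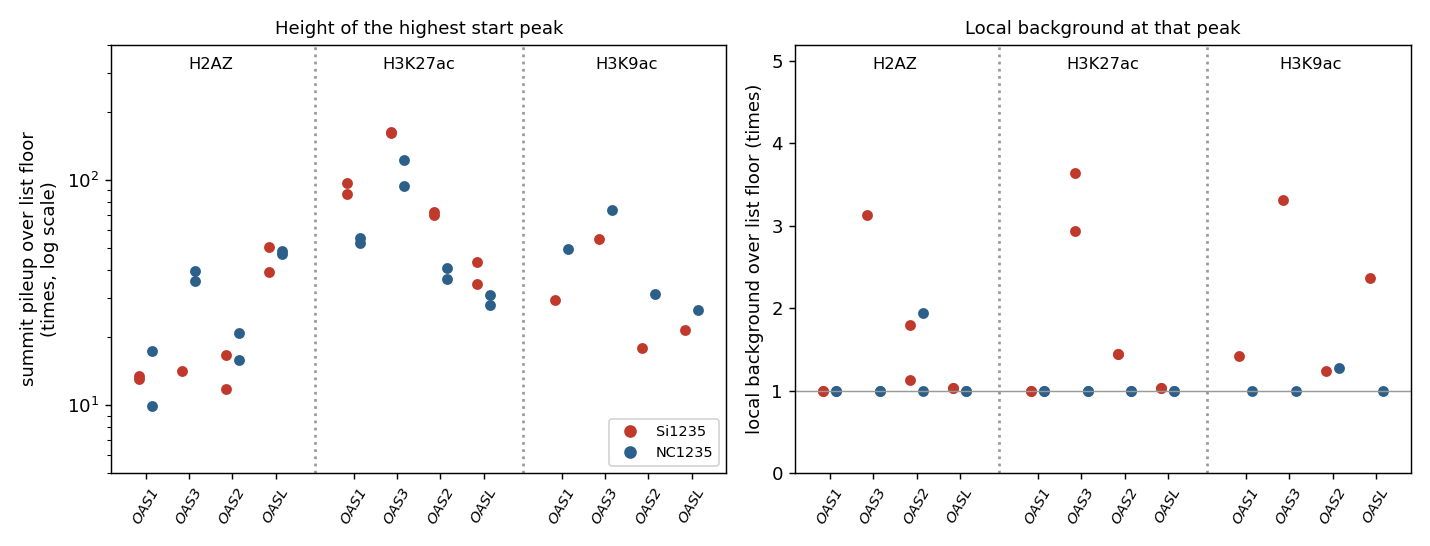
Left, pileup at the summit of the highest peak that overlaps each OAS start window, as times the floor of its list (y axis, log scale). Right, local background at the same summit, as times the floor. For H2AZ at OAS1 in Si1235 replicate 1, that summit lies outside the window, at -1225 bp from the start. Each point is 1 library, Si1235 left and NC1235 right, and no point is drawn for H2AZ at OAS3 in Si1235 replicate 2, which has no peak there. H3K27ac stands higher in Si1235 at all 4 genes, and the background at OAS3 is 2.94 to 3.64 times the floor in Si1235 and 1.0 times in NC1235.

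Genes that flank the cluster were measured in the same way. Of 12 listed neighbours, 8 had measurable H3K36me3, and 5 of them were higher in Si1235 with the arms apart and 1 was lower. Among the 5 are CFAP73, at chr12:113149724-113159276, and DDX54, at chr12:113157173-113185478. Their bodies overlap, so a peak in the shared stretch counts for both, and the 5 are not all separate. CFAP73 had 0% H2AZ, H3K27ac and H3K9ac cover at its start in every library. How much of its H3K36me3 cover lies in the shared stretch was not tested. The all-gene shares are 20.3% higher and 13.7% lower. RITA1, a regulator of Notch signalling, had 52.2% and 27.3% in Si1235, against 24.2% and 20.5% in NC1235. TPCN1, an endolysosomal ion channel, had 70.8% and 65.8% in Si1235, against 59.7% and 47.7% in NC1235. DDX54, an RNA helicase, had 88.2% and 84.4% in Si1235, against 80.2% and 74.5% in NC1235. TRAFD1, a regulator of innate signalling, was the 1 lower gene, with 65.0% and 60.7% in Si1235, against 69.2% and 69.6% in NC1235. PTPN11, a phosphatase upstream of the cluster, had 56.1% and 49.9% in Si1235 and 52.6% and 41.5% in NC1235, with the arms overlapping.

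The nearest annotated neighbours in the list on either side of the cluster, RPH3A and DTX1, had 0% H3K36me3 and 0% H3K27ac cover in every library. The differences of these neighbours ran up to 17.4 points, at RITA1, below the 44.1 points of OAS2 and above the 13.4 points of OAS1. Their median difference in H3K36me3 was 4.83 points over 8 genes. For H2AZ, 1 of 9 measured neighbours was higher and 1 was lower, against 21.1% and 10.7% of all measured genes. The higher one, RASAL1, had 25.5% and 27.3% in Si1235, against 16.4% and 19.0% in NC1235, a difference of 8.70 points, and the lower one, DRC10, differed by -2.55 points.

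Around OASL, 4 of 7 listed neighbours had measurable H3K36me3, and the arms overlapped at all 4. CAMKK2, a kinase, had 33.8% and 27.9% in Si1235 and 30.6% and 18.1% in NC1235. Their median difference was -1.28 points, against 22.97 points at OASL. SPPL3, an intramembrane protease, had lower H3K27ac cover at its start in Si1235, with 30.2% and 24.3% against 52.5% and 61.4% in NC1235, whereas OASL was higher.

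PDE12, which degrades 2-5A, had H3K36me3 cover of 42.0% and 31.96% in Si1235 and 48.5% and 34.8% in NC1235, and ABCE1, a ribosome recycling factor, had 76.9% and 76.8% in Si1235 and 82.9% and 74.7% in NC1235. For H3K36me3 the arms overlapped at PDE12 and ABCE1. They were apart for H3K27ac at PDE12, with Si1235 lower, and for H2AZ at ABCE1, with Si1235 higher.

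In the list of 12 genes of the 2-5A pathway and nucleic acid sensing, 8 had measurable H3K36me3. Of these, 4 were higher and 1 lower with the arms apart, against 20.3% and 13.7% of all measured genes. IFIH1, which encodes the RNA sensor MDA5, had 74.7% and 76.4% in Si1235, against 65.2% and 55.7% in NC1235. RIGI, the sensor that OASL assists, had 84.0% and 78.0% in Si1235, against 69.1% and 62.8% in NC1235. MAVS, the adaptor of both, had 81.0% and 69.9% in Si1235, against 69.0% and 60.6% in NC1235. The differences of 15.1, 15.1 and 10.6 points were close to that of OAS1. The list's median was 3.38 points, against 0.694 over all genes.

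In H2AZ, 4 of 11 measured genes of that list were higher and 1 lower with the arms apart, while OAS1 and OAS3 were lower. The all-gene shares lean the same way as the list, at 21.1% higher and 10.7% lower. EIF2AK2, which encodes the RNA-activated kinase PKR, had 97.2% and 82.4% in Si1235, against 73.5% and 67.9% in NC1235. CGAS, the DNA sensor that OASL restrains, had 63.0% and 68.0% in Si1235, against 61.0% and 55.0% in NC1235. RIGI had 100% and 97.5% in Si1235, against 89.7% and 93.8% in NC1235. MAVS was the lower one, with 86.1% and 78.5% in Si1235 against 90.7% and 88.9% in NC1235. For H3K27ac, 3 of 11 were higher and 1 lower, led by DHX58, a RIG-I relative, with 77.6% and 91.2% in Si1235 against 76.0% and 68.6% in NC1235. The all-gene shares for H3K27ac were 23.1% higher and 17.6% lower.

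In the list of 10 interferon signalling genes, 3 were higher and 1 lower in H3K36me3 with the arms apart. The shares over all genes were 20.3% and 13.7%. IRF9, the DNA-binding subunit of ISGF3, had 81.1% and 78.3% in Si1235, against 76.7% and 70.8% in NC1235. IFNAR1, a receptor chain for type I interferon, was the lower one of the list, with 36.2% and 32.4% in Si1235, against 50.5% and 48.5% in NC1235. For H2AZ, 1 of 9 measured genes of this list was higher, 1 was lower and 7 had overlapping arms, and the median difference was 2.2 points. Of all measured genes, 21.1% were higher and 10.7% lower, with a median of 1.23 points. The higher one of the list was IFNAR2, the other receptor chain, with 73.7% and 75.1% in Si1235, against 73.5% and 70.9% in NC1235. The lower one was STAT2, another ISGF3 subunit, with 28.3% and 40.8% in Si1235 against 60.5% and 61.5% in NC1235. At STAT2 the H2AZ difference was -26.5 points, beside -27.8 points at OAS1. In H3K27ac 2 were higher, IRF3 among them, and IFNAR2 was lower, with 50.9% and 50.4% in Si1235 against 65.0% and 66.3% in NC1235. All measured genes gave 23.1% higher and 17.6% lower.

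Across the 14 histone libraries, the profile nearest to OAS1 among 14925 protein-coding genes was that of IFIT1, an interferon-induced RNA-binding protein, at a Euclidean distance of 34.6 points. IFIT1 had mean H3K36me3 cover of 53.5% in Si1235 and 14.9% in NC1235 and mean H2AZ cover of 23.1% in Si1235 and 52.7% in NC1235. Next to OAS1 came MBNL2 and EMC9, at 38.1 and 38.8 points. The genes nearest to OAS3 were TRIB3, RPL18 and TRIM25, at 34.5, 44.1 and 44.4 points. Those nearest to OAS2 were GET3, PITPNM1 and ERRFI1, at 38.9, 41.7 and 42.5 points, and those nearest to OASL were SLC43A2, FARP2 and R3HDM4, at 30.4, 34.8 and 35.2 points. Among the members, OAS1 and OAS2 were closest, at 55.0 points, and OAS3 and OASL farthest apart, at 186.1 points. No member was among the 3 nearest genes of another.

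The ChIRP library held 9 peaks within the 4 OAS genes and none in a start window. OAS2 had 4, OAS3 had 3, and OAS1 and OASL had 1 each. Per 100 kb of gene this was 12.1 for OAS2, 8.63 for OAS3, 3.81 for OAS1 and 4.65 for OASL, against 4.79 over all protein-coding bodies and 3.91 over those of chromosome 12. The strongest peak of the family lay in OAS2 with its summit 4995 bp from the start, at chr12:112983180-112983767, with an authors' fold enrichment of 30.8 and 54 reads at the summit. It ranked at the 88.4th percentile of its list, and the next OAS2 peaks, at 9216 and 11164 bp, ranked at the 85.4th and 72.3rd. The strongest OAS3 peak, 1354 bp from the start, had a fold enrichment of 15.3 and ranked at the 67.1st percentile. The peaks of OAS1 and OASL, with fold enrichments of 5.88 and 4.73, ranked at the 12.2nd and 5.2nd. The ChIRP library has no replicate and no Si1235 counterpart here, so these positions carry no comparison between the arms.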

How the data were processed

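Chromatin of HCC1954 cells was profiled in 17 samples, of which 15 peak lists were used, 1 per library and none pooled. The submitters' processing notes list Bowtie2 2.2.9, MACS2 and the build hg38, and without a role HTSeq 2.0.3 and DESeq2 1.22.2. The sources used here give neither the settings nor the control of MACS2. For every peak the authors deposited a fold enrichment, a ratio of summit to local background, −log10 p and q values, and an integer score. Every list held only peaks with a −log10 q of at least 2.0, so a region under it counts as uncovered. In the H3K9ac lists the peak names carry a different residue, and the samples' labels were kept.

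Peaks on chromosomes 1 to 22 and X were merged per library, and cover was the percent of a window under them. Positions of genes are those of RefSeq on GRCh38.p14. Strand came from its promoter table for 27195 genes and, for 28 listed genes without an entry, OAS2 and OASL included, from general knowledge. Bodies were measured for protein-coding genes that span 2.0 kb or more, and genes with a mean cover under 5% were left out of all-gene counts. All genes of a mark were fitted with limma 3.58.1 in R 4.3.3, with Benjamini-Hochberg adjustment and no replicate term. No such test is given for the OAS genes, whose choice rested on the same contrast. H3K9ac and ChIRP had no replicates.

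No read counts were used, so depth is unknown except through the background levels, which are scaled in the NC1235 H3K27ac lists. The read pileup and local background of each summit were solved from its fold enrichment and p-value, within 0.002 on the −log10 p scale. Whole reads fitted 13 lists directly, and the NC1235 H3K27ac lists after scales of 0.702 and 0.947. The scripts were tested on simulated data.

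The genes named were the 4 members, the fixed lists of neighbours, of the 2-5A and sensing pathway and of interferon signalling, with up to 4 genes per mark and list whose arms did not overlap, and the 3 nearest genes of each member. PDE12 and ABCE1 were also named for their roles. Results for a few listed genes are not reported here. The members and lists were chosen with earlier results of these data known. Alternatives covered the peak threshold, equal numbers of peaks, window size, each library left out, normalization and the replicate number as a block. Replicate numbers are shared between arms, but nothing in the labels ties them, so they were not paired.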

Additional observations from a re-analysis of the deposited data

How the results depend on the processing

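H3K36me3 cover was higher in Si1235 with the arms apart at all 4 OAS genes under each alternative of threshold, peak number or window. These were a −log10 q of at least 5, equal numbers of peaks, and bodies without the first 1.0 kb. Leaving out a library cannot make arms that are apart overlap, so for every mark those runs are no check on the counts. With those runs included, the OAS2 difference ranged from 39.3 to 52.5 points and the OASL one from 17.7 to 28.2. H2AZ was lower with the arms apart at 2 OAS genes, and at 1 with a −log10 q of at least 5, at 1 with windows of 2.5 kb and at 1 by summit height, OAS3 in each case, with no peak counted as the lowest height. Leaving out single libraries gave 2 to 3 lower, and without NC1235 replicate 1 (OAS2) or Si1235 replicate 2 (OASL) also 1 higher. Arms are apart more often with 1 library in an arm. Over all genes, 1958 to 5187 were lower with the arms apart in these runs, against 1487 with all libraries. The higher ones numbered 3552 to 7313, against 2927. Across these runs the OAS2 difference ran from -10.6 to 5.28 points and the OASL one from -12.8 to 14.1. H3K27ac was higher with the arms apart at 2 OAS genes, at 1 with windows of 0.5 kb, where OAS2 was at 100% throughout, at 3 with windows of 2.5 kb, and at 4 by summit height, a measure chosen after seeing the data. In the windows of 2.5 kb, 3671 of 12601 genes were higher with the arms apart. Leaving out single libraries gave 2 to 3 OAS genes. Over all genes, 3611 to 5029 were then higher with the arms apart, against 2828 with all libraries. H3K9ac passed 20 points at 0 OAS genes, while by summit height 4 were lower, a comparison with no minimum size.

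Regions of H3K36me3 in Si1235 only numbered 3, against 5, with a −log10 q of at least 5, all in OASL. Regions of H3K9ac in Si1235 only numbered 0, against 1, and in NC1235 only 0, against 5, under that threshold. With an overlap of at least 50% of the region, 2 H2AZ regions were in NC1235 only, against 0.

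Over all genes, limma called 0 genes for H3K36me3, 93 after quantile normalization and 38 to 190 without single libraries, where a lone library is assumed to vary like the other arm. H2AZ had 0 in every setting. H3K27ac had 51, 9 with windows of 0.5 kb, 6 with windows of 2.5 kb and 109 to 254 without single libraries. Leaving out an NC1235 library gave 250 and 197 higher genes, and leaving out an Si1235 library 214 and 107 lower ones, so that count rests on which libraries enter. With the replicate number as a block, H3K27ac had 0 calls and 1389 genes at an unadjusted p under 0.05, H3K36me3 had 0 and 1839, and H2AZ had 0 and 1105. Same-numbered libraries deviated together with correlations of 0.30, 0.18 and 0.05 for H3K36me3, H2AZ and H3K27ac, over 2 pairs each, so the numbers were not taken as pairs. The causes of these shifts were not tested.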
